A study of Mus musculus with 18 samples.

Results

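Transcripts of 8 genes that mark or specify cortical interneurons born in the medial ganglionic eminence (MGE) were followed through cultured mouse cortical neurons: the peptide genes Sst and Npy, the calcium-binding protein gene Pvalb, and the transcription factor genes Lhx6, Sox6, Maf, Satb1 and Nkx2-1. They were chosen by name, and each matched a single gene among the 37310 in the count table. Of the 8, 7 had enough reads to be tested, and Pvalb did not. RNA was sequenced in 4 groups of 3 libraries. These were neurons lacking Fmr1, which encodes the RNA-binding protein FMRP (KO), given JQ1, then wild type neurons (WT) given JQ1, KO neurons given the vehicle DMSO, and WT neurons given DMSO. JQ1 blocks the bromodomains of BET proteins, readers of acetylated histones. All cells had spent 7 days in vitro when the 24 h treatment began. For the mouse strain, the age of the donor brains and their sex, the sources used here give nothing. The replicates carry the numbers 1 to 3. The labels do not tell separate cultures or animals from repeats of a culture, so the p-values reflect only how far these samples spread, which may be technical. Another 6 samples, treated with THZ1, were not analysed here.

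MGE interneurons are inhibitory cells that migrate tangentially into the cortex. Nkx2-1 specifies MGE progenitors and switches on Lhx6, and most cells destined for the cortex then silence Nkx2-1 while keeping Lhx6. Lhx6 acts through Sox6 and Satb1, and Maf takes part in their fate choice and maturation. The mature cells fall largely into a Pvalb-positive fast-spiking class and an Sst-positive class, with Npy in part of the Sst-positive class and in other interneurons. Pvalb is switched on late, after birth in the mouse.

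Library depth ran between 21643592 and 134110850 gene counts, both in WT neurons given JQ1 (replicates 3 and 2). Fmr1, the targeted gene, had 29.4 ± 4.59 counts per 1000000 mapped to genes (CPM) in KO neurons given JQ1 and 144.5 ± 9.19 CPM in WT neurons given JQ1 (SD, n = 3 each). In DMSO it had 24.4 ± 4.40 CPM in KO neurons and 120.9 ± 2.89 CPM in WT neurons (SD, n = 3 each). Both KO replicate 3 libraries stood apart in the X-inactivation transcript Xist, at 4.34 CPM in JQ1 and 4.29 CPM in DMSO, where every other library had 230.5 CPM or more. They also had the highest levels of the Y-linked gene Ddx3y, at 76.2 CPM in JQ1 and 54.5 CPM in DMSO. Every other library had between 28.1 and 46.1 CPM of Ddx3y. In bulk RNA fewer cells of a type and less RNA per cell cannot be told apart, which holds for every difference given here.

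Per kilobase of exon, Sst had the highest level of the 8 genes in every group, at 134.9 ± 19.1 CPM per kb in KO neurons given JQ1, 129.7 ± 34.2 CPM per kb in WT neurons given JQ1, 178.1 ± 24.9 CPM per kb in KO neurons given DMSO and 157.3 ± 11.0 CPM per kb in WT neurons given DMSO (SD, n = 3 each). The order of mean levels per kb below Sst was Npy, Lhx6, Satb1, Maf, Sox6, Nkx2-1 and Pvalb in all 4 groups. Npy and Lhx6 were neighbours whose libraries overlapped in every group, for example at 18.6 ± 4.28 and 14.7 ± 0.658 CPM per kb in KO neurons given DMSO (SD, n = 3). Satb1 and Maf overlapped in WT neurons given JQ1 alone. The exon lengths come from a newer gene annotation than the build used for counting, so these levels are approximate.

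**Figure D1:**
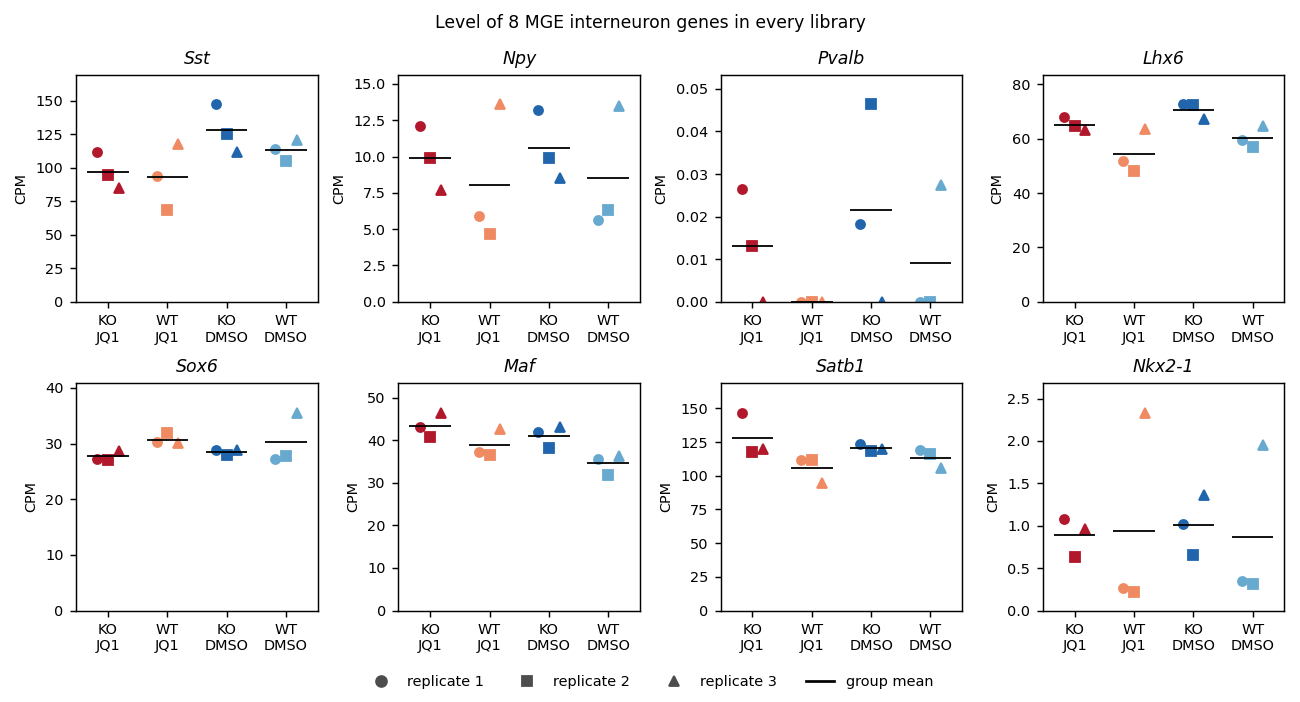
Level of each gene in CPM (y axes, starting at 0) in the 12 libraries, by group (x axes), with symbols for the replicate number and a bar for the group mean. In WT neurons replicate 3 lies far above the other libraries of its group for Npy (13.6 and 13.5 CPM) and Nkx2-1 (2.33 and 1.95 CPM), and Pvalb stays below 0.05 CPM throughout.

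The promoters of the peptide genes are shown as background to the set. In edgeR's fit of all 12 libraries with TMM scaling and no block, Sst was the only member called under JQ1. Npy, the other peptide gene, was not. Its 95% interval in KO neurons (-0.82 to 0.65) holds the Sst change of -0.40, so the genes are not shown to differ. Any part of the promoter motifs in the JQ1 response was not tested. Sst lies on chromosome 16 (23889573 to 23890958, minus strand, GRCm38) and encodes somatostatin, an inhibitory peptide released by dendrite-targeting interneurons. Npy lies on chromosome 6 (49822710 to 49829507, plus strand) and encodes neuropeptide Y. Each sequence is the window of 250 bases before to 50 bases after the gene's RefSeq start (GRCm38.p6), at chr16:23890795-23891094 on the minus strand for Sst and chr6:49822460-49822759 on the plus strand for Npy. Capitals mark the full cAMP response element, TGACGTCA, to which CREB binds.
Sst: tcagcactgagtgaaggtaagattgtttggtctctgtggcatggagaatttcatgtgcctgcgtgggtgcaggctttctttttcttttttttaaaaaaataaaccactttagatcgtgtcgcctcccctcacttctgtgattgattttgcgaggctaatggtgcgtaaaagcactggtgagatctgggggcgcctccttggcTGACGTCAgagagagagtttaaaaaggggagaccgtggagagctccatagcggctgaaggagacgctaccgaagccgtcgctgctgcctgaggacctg
Npy: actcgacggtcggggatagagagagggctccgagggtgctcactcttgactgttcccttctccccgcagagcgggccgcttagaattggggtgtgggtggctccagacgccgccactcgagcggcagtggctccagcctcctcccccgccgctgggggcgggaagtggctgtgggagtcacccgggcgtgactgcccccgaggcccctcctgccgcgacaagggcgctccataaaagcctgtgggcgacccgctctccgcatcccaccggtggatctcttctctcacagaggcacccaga
The element in the Sst window begins 48 bases before the RefSeq start. That start lies 114 bases inside the gene coordinates given above, so by those coordinates the element falls within the gene. The element occurs in 1.8% of 32544 RefSeq promoter windows of the same length. Both strands were searched for 3 further motifs. The core of the response element, TGACG, lies within the full element on either strand and was held by 20.9% of all windows. The homeodomain core TAATTA was held by 5.29% of the windows, and the letters of the TATA box, read as TATAAA, by 13.6%. None of the 4 motifs occurred in the Npy window. Promoter windows were found for 7 of the 8 genes, and the core of the response element also occurred in windows of Sox6 and Nkx2-1.

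Sst was abundant in every library. It had 112.2, 94.4 and 85.1 CPM in the KO libraries given JQ1 (replicates 1 to 3), and 94.0, 68.7 and 117.9 CPM in the WT libraries given JQ1. In DMSO it had 147.6, 125.5 and 112.0 CPM in KO libraries and 114.4, 105.1 and 120.9 CPM in WT libraries. In KO neurons the highest JQ1 library (112.2 CPM) lay just above the lowest DMSO library (112.0 CPM), so these groups overlapped, and KO and WT libraries overlapped under either treatment.

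Npy was lower and more uneven. It had 12.1, 9.89 and 7.72 CPM in KO libraries given JQ1 and 5.90, 4.65 and 13.6 CPM in WT libraries given JQ1. Under DMSO the levels of Npy were 13.2, 9.90 and 8.52 CPM in KO libraries and 5.63, 6.32 and 13.5 CPM in WT libraries. WT replicates 1 and 2 lay below every KO library, and WT replicate 3 lay above every KO library, under both treatments.

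Pvalb, the gene of parvalbumin, a calcium buffer of fast-spiking interneurons, was close to undetected. Its reads numbered 1, 1 and 0 in KO libraries given JQ1, 0 in all 3 WT libraries given JQ1, 1, 3 and 0 in KO libraries given DMSO, and 0, 0 and 1 in WT libraries given DMSO. Of the 12 libraries, 7 held no Pvalb read. A count of 0 allows up to 3 counts, which is 0.0231 CPM in the deepest library and 0.140 CPM in the shallowest, counting error only. Pvalb failed the filter on low counts, so no difference between groups was tested, and its absence from a library is not shown.

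Lhx6, a LIM homeodomain factor kept on in MGE-derived interneurons (chromosome 2, 36081953 to 36105408, minus strand, GRCm38), had 68.0, 64.7 and 63.1 CPM in KO libraries given JQ1 and 51.9, 48.1 and 63.5 CPM in WT libraries given JQ1. With DMSO alone Lhx6 had 72.7, 72.4 and 67.1 CPM in KO libraries and 59.6, 56.9 and 64.7 CPM in WT libraries. The genotypes did not overlap in DMSO, and in JQ1 they overlapped through WT replicate 3.

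Sox6, a SoxD factor needed for the placement and maturation of MGE interneurons, is also made by oligodendrocyte precursors. It had 27.3, 27.0 and 28.7 CPM in KO libraries given JQ1 and 30.2, 31.9 and 30.1 CPM in WT libraries given JQ1. The DMSO levels of Sox6 were 28.8, 27.9 and 28.9 CPM in KO libraries and 27.3, 27.7 and 35.5 CPM in WT libraries. Every KO library given JQ1 lay below every WT library given JQ1, and the DMSO libraries overlapped. Summed levels of the 5 oligodendrocyte precursor markers ran between 137.2 and 189.9 CPM in KO neurons given JQ1, 167.3 and 175.2 CPM in WT neurons given JQ1, 138.3 and 189.5 CPM in KO neurons given DMSO and 122.1 and 182.2 CPM in WT neurons given DMSO.

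Maf encodes c-Maf, a large Maf bZIP factor (chromosome 8, 115682942 to 115707794, minus strand, GRCm38). It had 43.1, 40.7 and 46.4 CPM in KO libraries given JQ1 and 37.2, 36.6 and 42.7 CPM in WT libraries given JQ1. Given DMSO, the cells had 41.9, 38.2 and 43.1 CPM in KO libraries and 35.7, 31.8 and 36.2 CPM in WT libraries. All KO libraries given DMSO lay above all WT libraries given DMSO. An antisense gene model, Gm15655, overlaps Maf exons and is listed with 0 counts.

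Satb1, a chromatin-organising factor that promotes Sst expression in these cells and is also expressed by other cortical neurons, had 146.6, 117.4 and 119.8 CPM in KO libraries given JQ1 and 111.4, 111.9 and 94.9 CPM in WT libraries given JQ1. Satb1 levels in DMSO were 123.8, 118.0 and 120.1 CPM in KO libraries and 118.9, 116.3 and 105.4 CPM in WT libraries. The genotypes did not overlap in JQ1, where KO replicate 1 was the highest library of all, and they overlapped in DMSO.

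Nkx2-1, the homeodomain factor at the head of the pathway, was scarce, with 12 to 74 reads a library. It had 1.08, 0.636 and 0.957 CPM in KO libraries given JQ1 and 0.269, 0.215 and 2.33 CPM in WT libraries given JQ1. In DMSO it had 1.02, 0.650 and 1.36 CPM in KO libraries and 0.352, 0.316 and 1.95 CPM in WT libraries. As with Npy, WT replicates 1 and 2 lay below every KO library and WT replicate 3 above every KO library, under both treatments.

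The same WT replicate 3 libraries stood apart in other genes of the ventral forebrain. Lhx8, a LIM homeodomain factor of MGE-derived cholinergic neurons, had 2.71 CPM in WT replicate 3 given JQ1 and 1.71 CPM in WT replicate 3 given DMSO, and no read in the other 4 WT libraries. In KO libraries it had 0.871, 0.371 and 0.957 CPM in JQ1 and 1.04, 0.325 and 0.847 CPM in DMSO. Isl1, another LIM homeodomain factor of cholinergic and striatal neurons, had 0.0192, 0.0231 and 1.07 CPM in WT libraries given JQ1 and 0.0293, 0.0263 and 0.715 CPM in WT libraries given DMSO. WT replicate 3 was thus far above the other WT libraries in both genes, with KO libraries in between. The 4 forebrain cholinergic markers with a row in the table, Lhx8 and Isl1 among them, summed to between 0.94 and 1.62 CPM in KO neurons given JQ1, 0.0692 and 4.25 CPM in WT neurons given JQ1, 0.789 and 1.82 CPM in KO neurons given DMSO and 0.132 and 2.89 CPM in WT neurons given DMSO. Chat, which makes acetylcholine, had 2 and 6 reads in the WT replicate 3 libraries given JQ1 and DMSO, none in the other WT libraries and between 1 and 3 in every KO library. The highest library of each WT group in these sums was replicate 3. The part of these cells in the spread of Npy and Nkx2-1 was not tested.

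**Figure D2:**
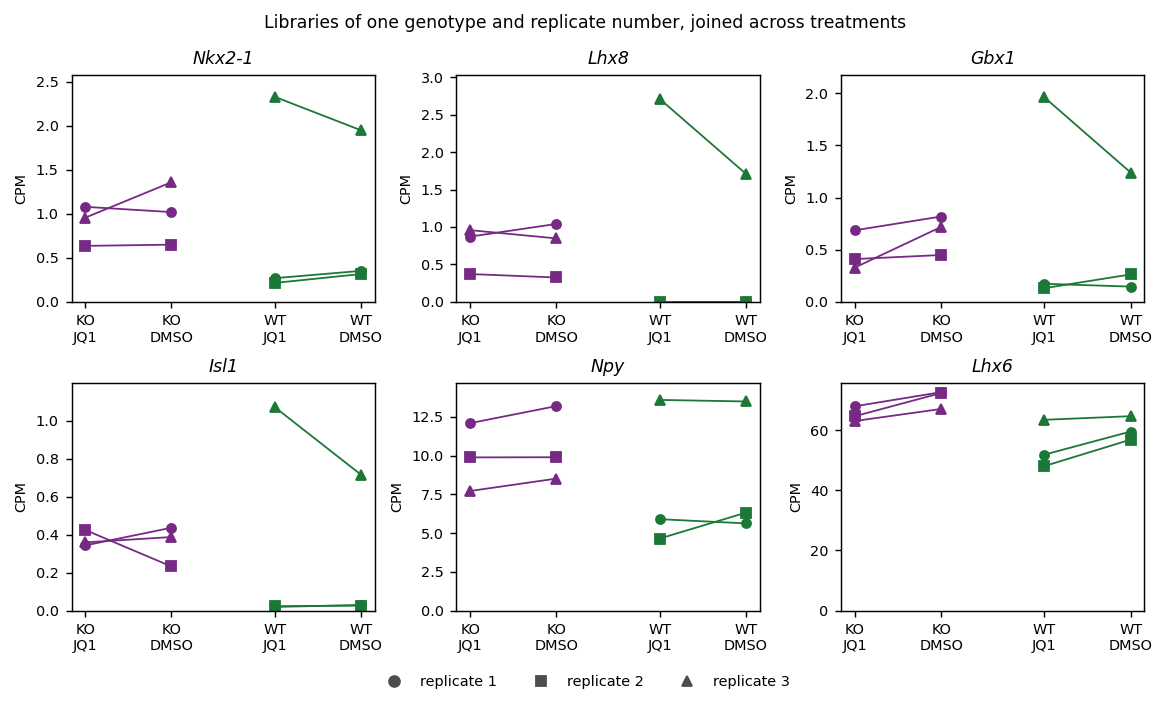
Level in CPM (y axes, starting at 0) of 6 genes in each library, with lines joining the JQ1 and DMSO libraries that share a genotype and a replicate number (KO purple, WT green). WT replicate 3 is the highest WT library in every panel, under both treatments, at 2.33 and 1.95 CPM for Nkx2-1 and 2.71 and 1.71 CPM for Lhx8.

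KO neurons were compared with WT neurons under DMSO, the comparison of the genotypes without JQ1. Of the 7 members tested, Maf rose in KO neurons, by 0.25 on the log2 scale (SE 0.0741, 95% interval 0.09 to 0.41, Benjamini-Hochberg adjusted p = 0.0389 by edgeR's quasi-likelihood test, n = 3 each), and all 3 KO libraries were above all 3 WT libraries. Of all 15433 genes tested, 15% were called in this comparison, 7.21% as higher and 7.76% as lower. The median log2 change of the 7 members was 0.19, with 6 of them positive, beside a median of -0.015 over all genes tested. Scaled to ERCC spike-in RNA instead, all 7 were negative, because the median of all genes then lay at -0.82, and 6 of the 7 still lay above that median. The libraries of the genotypes did not overlap for Lhx6 and Maf, both higher in KO, against 37.6% of all genes in either direction (17% higher, 20.7% lower).

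The call on Maf was not firm. It was lost without KO_DMSO replicate 1 (adjusted p = 0.0946), KO_DMSO replicate 3 (0.0622), WT_DMSO replicate 1 (0.0664) or WT_DMSO replicate 2 (0.154), and without both KO replicate 3 libraries (0.0759, edgeR in each case). Scaled to spike-ins its log2 change was -0.57 (adjusted p = 0.0708).

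Lhx6 differed by a log2 change of 0.23 in DMSO (SE 0.0816, 95% interval 0.05 to 0.40, adjusted p = 0.0726 by edgeR, n = 3 each), which did not pass. DESeq2 gave it an adjusted p of 0.0374. The authors' deposited DESeq2 table of KO over WT, which names no treatment, gives a log2 change of 0.23 with an adjusted p of 0.00298. For Maf the authors' deposited table gives 0.24 and 0.00511. The other members did not pass in edgeR or in the authors' deposited table. Their log2 changes in edgeR were 0.31 for Npy (95% interval -0.45 to 1.07), 0.19 for Nkx2-1 (-1.38 to 1.77), 0.18 for Sst (-0.15 to 0.51), 0.09 for Satb1 (-0.09 to 0.26) and -0.08 for Sox6. The authors' log2 changes were smaller for Npy (0.08) and Nkx2-1 (0.02), and were 0.17 for Sst, 0.10 for Satb1 and -0.06 for Sox6. The intervals of Npy and Nkx2-1 are wide enough to hold changes of 2-fold in KO neurons.

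Without both WT replicate 3 libraries, a choice made after their values had been seen, 4 members were higher in KO neurons given DMSO (edgeR), where 8.84% of the 15843 genes then tested were called, 5.82% as higher. Npy then had a log2 change of 0.84 (SE 0.210, adjusted p = 0.0312), Nkx2-1 1.60 (SE 0.398, adjusted p = 0.0306), Lhx6 0.30 (SE 0.0587, adjusted p = 0.0125) and Maf 0.30 (SE 0.0754, adjusted p = 0.0313). The values of the remaining WT libraries are those of replicates 1 and 2 given above, so these changes rest on 2 WT libraries a group. For all 4 genes these lay below every KO library given DMSO. The removal was picked on such values, so these p-values add no support.

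Under JQ1, the comparison of KO with WT neurons called none of the 7 members (edgeR), where 8.97% of all genes were called (4.85% higher, 4.13% lower). An unadjusted p under 0.05 was reached by 3 of the 7, beside 26.3% of all genes. DESeq2 called 2, Lhx6 and Satb1, beside 12.3% of all genes. Lhx6 had a log2 change of 0.27 (SE 0.0823, adjusted p = 0.0527) and Satb1 of 0.27 (SE 0.0824, adjusted p = 0.0581, edgeR, n = 3 each). Satb1 libraries did not overlap (higher in KO) and Sox6 libraries did not overlap (lower in KO, log2 change -0.16), against 27% of all genes (14.1% higher, 12.8% lower). The remaining log2 changes were 0.58 for Nkx2-1, 0.46 for Npy, 0.17 for Maf and 0.07 for Sst. The median of the 7 was 0.27 beside -0.004 for all genes, with 6 positive, or 5 positive when scaled to spike-ins. Without both WT replicate 3 libraries, again removed after their values had been seen, 3 members passed (edgeR). They were Npy at 0.93 (adjusted p = 0.0208), Nkx2-1 at 1.86 (0.0152) and Lhx6 at 0.38 (0.00585). In that fit 6.92% of all genes were called, 3.13% as higher. The 2 WT libraries left lay below every KO library given JQ1 for these 3 genes. The removal was picked on such values, so these p-values add no support.

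**Figure D3:**
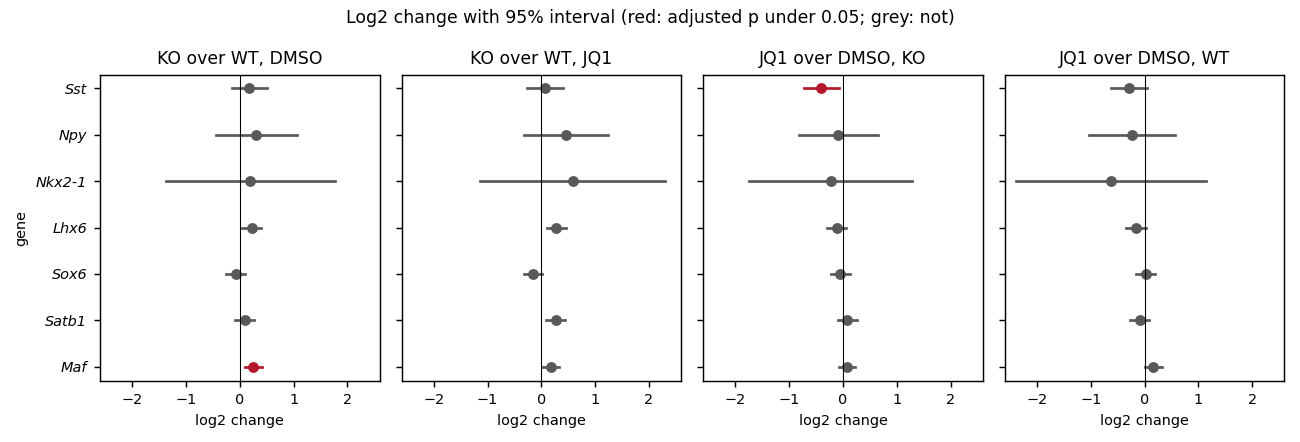
Log2 change (x axes) of the 7 tested members in 4 comparisons, with 95% intervals from edgeR's quasi-likelihood fit of 12 libraries, red where the adjusted p was under 0.05. The 2 red points are Maf in KO over WT under DMSO (0.25) and Sst in JQ1 over DMSO in KO neurons (-0.40), and the intervals of Nkx2-1 are the widest.

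JQ1 against DMSO asks which transcripts depend on BET proteins over 24 h. In KO neurons Sst fell by 0.40 on the log2 scale (SE 0.154, 95% interval -0.73 to -0.07, 0.757-fold, adjusted p = 0.0378, edgeR's quasi-likelihood test, n = 3 each). It was the only member called, and 57.1% of all genes were called in this comparison, 27.7% as higher and 29.4% as lower. The JQ1 library lay below the DMSO library of the same replicate number in 3 of 3 pairs, at log2 ratios of -0.40, -0.41 and -0.40. The labels do not state that replicate numbers pair the libraries. Pairing is a hint from these data alone (correlations of the libraries' deviations are given with the methods). A block on the replicate number within a genotype was added after the data had been seen, and 62.8% of all genes were then called. In that blocked fit Sst had a log2 change of -0.40 (SE 0.0738, adjusted p = 0.000313) and Lhx6 of -0.12 (SE 0.0466, adjusted p = 0.0409, edgeR). Without the block Lhx6 had an adjusted p of 0.234.

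The call on Sst in KO neurons was lost in the unblocked fit without KO_DMSO replicate 1 (adjusted p = 0.135), KO_DMSO replicate 2 (0.0524), KO_JQ1 replicate 2 (0.0911) or KO_JQ1 replicate 3 (0.145), and by DESeq2 (0.0736). Scaled to spike-ins the log2 change was -0.33 (adjusted p = 0.672). No member had KO libraries that were free of overlap between treatments, against 60.7% of all genes (29.7% higher, 31.1% lower). The other log2 changes in KO neurons lay between -0.23 for Nkx2-1 and 0.08 for Maf and Satb1, and the median of the 7 was -0.09 beside 0.001 for all genes. Of the 7 members, 2 were positive and 5 negative, and under spike-in scaling 3 were positive and 3 negative.

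In WT neurons given JQ1 none of the 7 members was called in the unblocked fit (edgeR), where 55.1% of all genes were (25.9% higher, 29.3% lower). No member reached an unadjusted p under 0.05, beside 60% of all genes, and DESeq2 called 0, beside 53.5% of all genes. Sst had a log2 change of -0.29 (SE 0.156, 95% interval -0.63 to 0.04, adjusted p = 0.126). Maf libraries did not overlap (higher in JQ1, log2 change 0.16, adjusted p = 0.088), against 62.6% of all genes (30.3% higher, 32.3% lower). Lhx6 had a log2 change of -0.16 (adjusted p = 0.113). With the block used for KO neurons, 60.2% of all genes were called in WT neurons. Sst then had a log2 change of -0.32 (SE 0.0749, adjusted p = 0.00227, edgeR). Lhx6 was at -0.16 (SE 0.0481, adjusted p = 0.0106) and Maf at 0.16 (SE 0.0495, adjusted p = 0.0107) in the same blocked fit. The median of the 7 was -0.16 beside -0.004 for all genes, and 5 of the 7 were negative. Scaled to spike-ins all 7 were negative, with the median of all genes at -0.63. Without WT_JQ1 replicate 3, the shallowest library, Sst had a log2 change of -0.48 (adjusted p = 0.0127) and Lhx6 of -0.27 (0.00329, edgeR). Nkx2-1 then had -1.89 (0.0314), but WT_DMSO replicate 3, also high for Nkx2-1 (1.95 CPM), stayed in that fit. Without WT_DMSO replicate 3 Sox6 had 0.17 (0.0267, edgeR). With both removed, a choice made after their values had been seen, Nkx2-1 had -0.49 (adjusted p = 0.448, edgeR). In that fit 47.3% of all genes were called, and Sst (-0.42, adjusted p = 0.0412), Lhx6 (-0.21, 0.018) and Sox6 (0.19, 0.024) passed.

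The difference between the JQ1 responses of KO and WT neurons was tested directly. No member and no gene of the 15433 was called (0% of all genes, edgeR), although 355 genes had an unadjusted p under 0.05, and DESeq2 also called 0. None of the 7 members was among those 355. The Sst responses of -0.40 in KO and -0.29 in WT neurons are therefore not shown to differ.

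Most genes of the somatostatin and NPY receptors fell under JQ1. With the neuregulin receptor Erbb4 the list held 9 tested genes, of which 6 fell and none rose in KO neurons, and 7 fell and none rose in WT neurons (edgeR), with medians of -0.88 and -0.93 on the log2 scale. Of all genes 29.4% were lower in KO neurons and 29.3% in WT neurons. Sstr3, a somatostatin receptor of neuronal cilia, had 0.0264, 0.146 and 0.120 CPM in KO libraries given JQ1 and 2.36, 2.31 and 2.34 CPM in KO libraries given DMSO. In WT libraries it had 0.135, 0.177 and 0.187 CPM in JQ1 and 1.99, 2.03 and 1.76 CPM in DMSO. No JQ1 library came near a DMSO library. Its log2 change was -4.40 in KO neurons (SE 0.247, adjusted p = 8.38e-09) and -3.52 in WT neurons (SE 0.230, adjusted p = 3.67e-08), with as few as 1 read in a JQ1 library.

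Sstr1 fell by 1.13 on the log2 scale in KO neurons and by 1.28 in WT neurons, and Sstr2 fell by 1.21 in KO and by 1.28 in WT neurons. Sstr4, a further somatostatin receptor, fell by 0.88 in KO and by 0.81 in WT neurons. Erbb4, the neuregulin receptor of interneurons, did not pass, at -0.10 in KO and 0.01 in WT neurons. Between genotypes Erbb4 alone of the 9 was called, at 0.31 in KO over WT neurons given DMSO (SE 0.0811, adjusted p = 0.0234, edgeR), and none of the 9 was called under JQ1. Of all genes 15% were called between genotypes in DMSO and 8.97% in JQ1.

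A list of other genes of MGE-derived cells held 31 tested genes, Erbb4 again among them. Which cells of the cultures held these transcripts was not tested. Of these genes 3 rose and 15 fell in KO neurons (median -0.45), where 27.7% of all genes rose and 29.4% fell. In WT neurons 3 rose and 16 fell (median -0.57, edgeR), where 25.9% of all genes rose and 29.3% fell. Among those that fell were Grin3a, an NMDA receptor subunit enriched in Sst cells (-1.34 in KO and -1.23 in WT), Tacr1, the substance P receptor (-2.02 and -2.40), Pde1a, a calmodulin-regulated phosphodiesterase (-0.97 and -1.03), and Nos1, the neuronal nitric oxide synthase (-1.53 and -1.39). Tacr1 and Nos1 mark the long-range Sst cells. Tacr1 had 0.897, 0.967 and 0.838 CPM in KO libraries given JQ1 and 3.44, 4.38 and 3.31 CPM in KO libraries given DMSO. The groups of libraries lay far apart for Tacr1, while those of Sst overlapped.

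**Figure D4:**
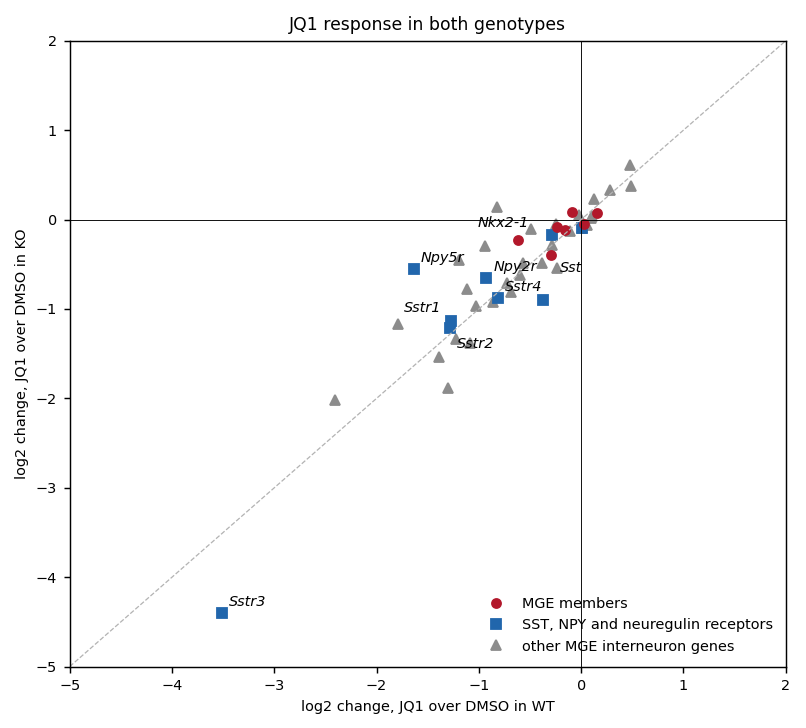
Log2 change under JQ1 in WT neurons (x axis) and in KO neurons (y axis) for the 7 tested members (red circles), 9 receptor genes (blue squares) and 31 other MGE genes (grey triangles), with a dashed line where both are equal. Erbb4 is in both the receptor list and the list of other MGE genes. The members other than Nkx2-1 lie near 0, Sst at -0.29 and -0.40, while Sstr1 and Sstr2 lie beyond -1 on both axes and Sstr3 at -3.52 and -4.40.

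Between genotypes the same 31 genes split evenly in DMSO, with 4 higher and 4 lower in KO neurons (median -0.01), beside 7.21% and 7.76% of all genes. In JQ1 none was higher and 2 were lower (median 0.10), beside 4.85% and 4.13% of all genes. Grin3a fell in KO neurons under both treatments, by 0.47 in DMSO (SE 0.0751, adjusted p = 0.00215) and by 0.58 in JQ1 (SE 0.0804, adjusted p = 0.0016, edgeR, n = 3 each). Of the 10 genes shared by GABAergic neurons and their Dlx programme, 7 were higher in KO neurons given DMSO and none was lower (median 0.47, with 7.21% of all genes higher), among them the homeodomain factor Dlx5 at 0.67. Under JQ1 3 of the 10 were higher (median 0.39, with 4.85% of all genes higher). Their summed levels ran between 868.6 and 1014.1 CPM in KO neurons given JQ1, 639.4 and 866.7 CPM in WT neurons given JQ1, 954.5 and 1048.3 CPM in KO neurons given DMSO and 649.3 and 788.6 CPM in WT neurons given DMSO. The genotypes did not overlap in these sums, by less than 2 CPM under JQ1, where WT replicate 3 was the highest WT library. Markers of other cells moved beside them. In DMSO the 8 astrocyte markers summed to between 529.2 and 714.9 CPM in KO libraries and 757.6 and 915.5 CPM in WT libraries, with 2 lower, none higher and a median log2 change of -0.37. The 9 progenitor markers summed to between 390.1 and 467.2 CPM in KO libraries and 479.5 and 521.0 CPM in WT libraries given DMSO, with 3 lower, none higher and a median of -0.39. Under JQ1 the sums of the astrocyte markers overlapped, between 337.8 and 548.6 CPM in KO and 531.6 and 720.4 CPM in WT libraries, and those of the progenitor markers did not, between 315.4 and 409.7 CPM in KO and 468.0 and 534.0 CPM in WT libraries. Their part in the genotype differences of the members and of the GABAergic genes was not tested. Of 14 genes of interneurons from the caudal ganglionic eminence (CGE), 6 were higher and 1 lower in KO neurons given DMSO (median 0.13), beside 7.21% and 7.76% of all genes. The members' count of 1 in 7 was not tested against either list.

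The genes whose profiles over the 12 libraries were most like those of the members were found by the root mean square (RMS) difference of log2 CPM, each centred on its own mean. Nearest to Sst were Caly (0.107), Pold4 (0.115) and Enho (0.121), where Sst itself spread by 0.277 about its mean. Nearest to Npy were Nrsn2 (0.271), Pdlim1 (0.311) and the vesicular GABA transporter gene Slc32a1 (0.325), where Npy spread by 0.520. Nearest to Lhx6 were Ndufs7 (0.0681), Vps28 (0.0682) and P4htm (0.0710), where Lhx6 spread by 0.174, and nearest to Satb1 were Ciz1 (0.0627), Eml1 (0.0657) and Zmym3 (0.0683), where Satb1 spread by 0.141. Among these 12 genes Slc32a1 was the only interneuron gene of the lists used here. For Nkx2-1, described after its values had been seen, the nearest were Gbx1 (0.356), Slc5a7 (0.457) and Six3os1 (0.596), where Nkx2-1 spread by 1.07. Gbx1, a homeodomain gene of the MGE, and Slc5a7, the choline transporter of cholinergic neurons, both had their highest WT level in replicate 3, Gbx1 at 1.96 CPM in JQ1 and 1.24 CPM in DMSO.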

How the data were processed

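TruSeq RNA libraries were sequenced with single 75 bp reads, per the labels' protocols. The submitters' processing notes list TopHat2 2.1.0, SAMtools 0.1.19, HTSeq 0.6.1, DESeq and DESeq2, and the mm9 build. For strandedness the sources used here give nothing, so genes with overlapping exons are uncertain. The deposited table holds raw read counts for 12 of the 18 samples, with 92 ERCC spike-ins that were kept out of library sizes. The authors' DESeq2 table of KO over WT gives, per the file headers, a mean signal (baseMean), a log2 fold change, a Wald score and a p-value, raw and adjusted, and was used here for its log2 changes and adjusted p-values alone.

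Counts were analysed with edgeR 4.0.16 in R 4.3.3: filterByExpr at a minimum count of 10 (15433 genes kept, 21877 dropped), TMM scaling, 1 mean per group, quasi-likelihood F tests (two-sided, 8 residual and 6.21 prior degrees of freedom, biological coefficient of variation 6.69%), and Benjamini-Hochberg adjustment over 15433 genes, with an adjusted p under 0.05 as a call. CPM use TMM-scaled library sizes. The fit was tested on simulated data. Between replicates the chi-square of the counts was 4.94 to 41.4 per degree of freedom, above counting error. Exon lengths and member coordinates are from GENCODE M21 (GRCm38), not the mm9 build of the counts. DESeq2 1.42.0, other scalings, no filter, replicate blocks, fits of only the groups compared and left-out libraries were tried as alternatives.

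The members, gene lists and tests were chosen with earlier results of these data known. All 8 members are named, with up to 4 genes of smallest adjusted p per list among those called, defining genes of cell types, and the 3 genes most alike in profile to Sst, Npy, Lhx6 and Satb1. Genes outside this rule are Xist, Ddx3y, Gbx1, Slc5a7 and Six3os1. Some genes that the rule takes are not reported here.

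Whether replicate numbers pair libraries was checked from the correlation of deviations from group means over genes. For JQ1 against DMSO in KO neurons the same-number correlations were 0.19, 0.26 and 0.18, so numbers were taken as paired. In WT neurons they were 0.081, 0.16 and 0.16, and each number also correlated best with its own. Blocked values are therefore given for both genotypes beside the unblocked ones. Between genotypes the same-number correlations were 0.0031, -0.061 and -0.17 in DMSO and 0.064, 0.11 and -0.011 in JQ1, and no pairing was taken there.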

Additional observations from a re-analysis of the deposited data

How the results depend on the processing

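Members called by edgeR's quasi-likelihood test (1 for KO over WT in DMSO, 0 in JQ1, 1 for JQ1 in KO neurons, 0 in WT neurons) depended on the libraries and the scaling. In that order of comparisons, that fit called 15%, 8.97%, 57.1% and 55.1% of all genes. DESeq2 called 2, 2, 0 and 0 members, beside 17.1%, 12.3%, 55.1% and 53.5% of all genes. No filter gave 2, 2, 1 and 1, beside 9.54%, 6.35%, 35.7% and 34.9%. RLE size factors gave 1 in KO over WT under JQ1, beside 8.9%. Scaling to spike-ins gave 3, 0, 0 and 4, all lower, beside 77.7%, 0.149%, 9.85% and 37.9% of all genes called in either direction. In KO over WT under DMSO it moved the median of all genes to -0.82, and the 6 members with positive log2 changes all turned negative. Among them Sst (adjusted p = 0.0469) and Satb1 (0.0273) passed the threshold, and Maf (0.0708) no longer did. Over all genes it called 11994 in that comparison (4 higher, 11990 lower, against 1113 and 1198), 23 in KO over WT under JQ1 (5 and 18, against 748 and 637), 1520 for JQ1 in KO neurons (206 and 1314, against 4279 and 4538) and 5854 in WT neurons (40 and 5814, against 3990 and 4517). The cause was not tested. Fits of only the compared groups gave 2 members for KO over WT in DMSO, beside 18.1% of all genes, and 630 genes (4.36%) in JQ1.

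Leaving out each library in turn gave 0 to 2 members for KO over WT in DMSO and 0 to 1 in JQ1, 0 to 1 for JQ1 in KO neurons, 0 to 3 in WT neurons and 0 for the difference of responses. Over all genes the counts ran from 885 to 2764, 534 to 2027, 7807 to 9028, 7563 to 8889 and 0. Without both KO replicate 3 libraries the members called were 0, 2, 0 and 0, beside 20.3%, 15.8%, 50.8% and 57.4% of all genes. KO over WT in JQ1 then had 2469 genes. The removals that follow were chosen after seeing the data. Without both WT replicate 3 libraries the members called were 4, 3, 1 and 3, beside 8.84%, 6.92%, 56.0% and 47.3% of all genes. KO over WT in DMSO then had 1401 genes. Without all 4 replicate 3 libraries the members called were 4, 4, 1 and 3, beside 18.7%, 16.7%, 52.4% and 52.0% of all genes. KO over WT in JQ1 then had 2621 genes.

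With the replicate block, 3 members were called in KO over WT under JQ1 (Satb1, Lhx6 and Maf), beside 12.7% of all genes. For JQ1 in WT neurons it called 1, beside 56.6%. A replicate block by genotype and number, also added after seeing the data, gave 2 members in KO neurons, beside 62.8% of all genes. In WT neurons it gave 3 (Sst -0.32, Lhx6 -0.16 and Maf 0.16), beside 60.2%, and for the difference 0. Each number correlated best with its own in JQ1 against DMSO (3 of 3 in KO and in WT neurons), but in only 0 and 1 of 3 between genotypes in DMSO and JQ1, a hint from the data and not from the design. The block changed no other count of members called.

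Few reads limit Pvalb and Nkx2-1, and Nkx2-1 also spread widely among WT libraries. With 3 libraries a group, 1 library can decide the calls on Maf, Sst and Lhx6.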

Other observations

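Sox5, the SoxD partner of Sox6, which is known for corticofugal projection neurons, fell in KO neurons, by 1.12 on the log2 scale in JQ1 (SE 0.0774, adjusted p = 3.58e-06) and by 1.02 in DMSO (SE 0.0762, adjusted p = 9.17e-06, edgeR, n = 3 each). It had 26.6, 28.6 and 25.9 CPM in KO libraries given JQ1 and 60.8, 62.6 and 52.0 CPM in WT libraries given JQ1. In DMSO it had 30.9, 35.4 and 29.9 CPM in KO libraries and 67.8, 66.0 and 62.2 CPM in WT libraries, so the genotypes lay far apart under both treatments.

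Of 4 other tested genes of calcium-binding proteins of interneurons, 2 rose and 2 fell under JQ1 in KO neurons, and none rose and 2 fell in WT neurons (edgeR). Of all genes 27.7% rose and 29.4% fell in KO neurons, and 25.9% rose and 29.3% fell in WT neurons. Calb2 (calretinin, of CGE-derived cells) had log2 changes of -1.72 in KO neurons and -1.86 in WT neurons (adjusted p = 2.18e-06 and 2.06e-06), and Necab2 of -1.17 and -1.09 (adjusted p = 1.5e-08 and 3.87e-08). Calb1 (calbindin, in part of the Sst cells) was at 0.23 in KO neurons (adjusted p = 0.0449) and Necab1 at 0.36 (adjusted p = 0.0227). In KO over WT neurons given DMSO (edgeR), 2 were higher, Calb2 at 0.56 (adjusted p = 0.0407) and Necab2 at 0.31 (adjusted p = 0.0101). Calb1 was lower, at -0.35 (adjusted p = 0.0235). Of all genes 7.21% were higher and 7.76% lower in that comparison.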
